A study of Zea mays with 18 samples.

Results

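Roots of the maize line ZmNRL1-OE were compared with roots of the inbred line B73, both at low nitrate, across all genes of a deposited read count table. The 6 libraries of this comparison, 3 of each line, were taken by their labels from the 18 libraries of the series. The tested plants were ZmNRL1-OE, labelled as an overexpression line of ZmNRL1, held for 48 h in modified Hoagland nutrient solution with 0.15 mM nitrate. The control plants were B73, called wild type in the study's design, in the same solution for the same time. Seedlings of both were 10 days old when the treatment began. The same pair of lines at 15 mM nitrate, again with 3 libraries each, were set beside it, and these and the 6 libraries of zmnrl1-m, labelled as a mutant, entered the estimate of the spread. The labels name neither the promoter of the overexpression construct nor the number of transformation events nor the line that was transformed. They also do not tell whether repeats were grown separately, so a p-value here reflects how far these samples spread, and that spread may be technical. In RNA from whole roots, fewer cells of a type and less RNA per cell cannot be told apart.

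Nitrate is both the main nitrogen source of maize roots in aerated soil and a signal. Roots take it up through high- and low-affinity transporters, reduce it to ammonium and build it into amino acids, and many genes for these steps change within hours when the supply changes. The series title presents ZmNRL1 as a protein with DUF630 and DUF632 domains that promotes the response to nitrogen stress. In Arabidopsis, a protein with these domains, NRG2, is known as a positive regulator of nitrate signalling. Genes carry the identifiers of the count table, with no names or functions attached. The RefSeq table at hand held 0 of the 41632 identifiers, so the level of ZmNRL1 itself and of the nitrate transport and assimilation genes was not analysed here.

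Total counts were 38967759, 22962059 and 30632186 in ZmNRL1-OE and 21974154, 35625821 and 25397779 in B73 at low nitrate. Across genes, log2 CPM, in which CPM is a gene's count relative to the scaled library size, correlated with r = 0.987 to 0.993 between libraries of ZmNRL1-OE, with 0.983 to 0.992 between libraries of B73 and with 0.903 to 0.908 between the lines. The B73 libraries with number 1 stood apart. In 103 genes ZmNRL1-OE averaged 5 CPM or more while replicates 2 and 3 of B73 together had at most 2 counts. Of these, 29 had at least 10 counts in replicate 1 of B73, at 2.198% to 35.9% of the ZmNRL1-OE level (median 13.8%). The summed level of these 29 genes was 779, 725 and 767 CPM in ZmNRL1-OE and 109.8, 0.374 and 0.237 CPM in B73 at low nitrate. At high nitrate it was 611, 715 and 682 CPM in ZmNRL1-OE and 184.8, 0.430 and 0.214 CPM in B73. The choice of the 29 genes made replicate 1 the high library of B73 at low nitrate. The high-nitrate counts were not part of that choice, and there too replicate 1 was the high library of B73. Of the 103 genes, 53 had 0 counts in replicate 1 of B73 at low nitrate. The same check on each of the other 5 low-nitrate libraries found 0 genes with at least 10 counts. It covered the 67 to 75 genes that had at most 2 counts over the other 2 libraries of the group. The part of this library in the differences described next was not tested as a cause, and the counts are given with it and without it. The 103 genes were chosen after their values were seen and are a description.

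**Figure D1:**
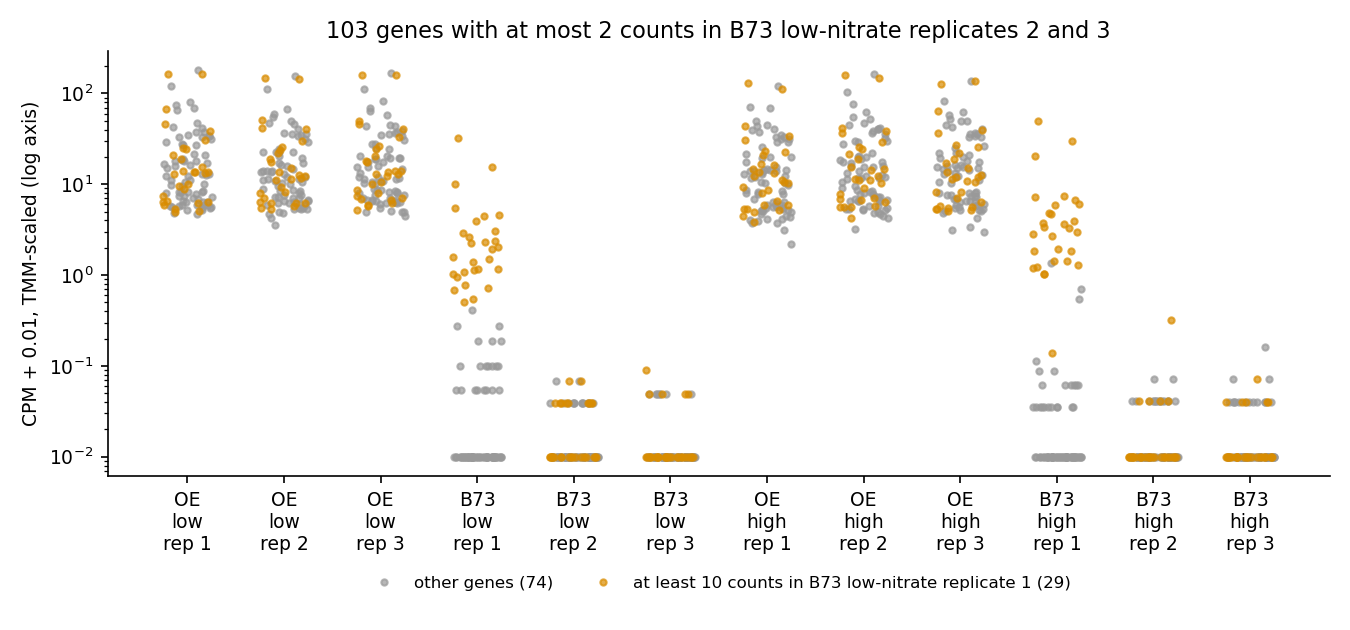
CPM + 0.01 on a log axis in each of 12 libraries for the 103 genes with at most 2 counts over B73 low-nitrate replicates 2 and 3 and at least 5 CPM in ZmNRL1-OE (OE), with 1 point per gene and library. The 29 orange genes are those with at least 10 counts in B73 low-nitrate replicate 1, which sets their place in that library. They also lie above the other B73 high-nitrate libraries in high-nitrate replicate 1.

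Many genes differed between ZmNRL1-OE and B73 at low nitrate, most of them by less than 2-fold. Of 27134 genes tested with edgeR's quasi-likelihood test, 9456 (34.8%) had a Benjamini-Hochberg adjusted p under 0.05 and are called different. In ZmNRL1-OE 4376 of them were higher (16.1% of all genes tested) and 5080 lower (18.7%). The values of the 3 ZmNRL1-OE libraries did not overlap those of the 3 B73 libraries in 8973 of the called genes, and in 12224 of all tested genes. The median log2 fold change was 0.90 for the higher genes and -0.61 for the lower ones, beside -0.03 over all tested genes. With genes at 0 counts in B73 or in ZmNRL1-OE set to a floor of 3 counts, these medians were 0.90 and -0.61.

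Large differences more often had ZmNRL1-OE as the higher line, though not among genes with a mean of 100 CPM or more. At least 2-fold apart were 1991 higher genes (7.34% of all tested) and 1468 lower genes (5.41%), and at least 4-fold apart were 1052 higher and 698 lower genes. Higher genes outnumbered lower genes at the 2-fold level in each of 16 alternative settings of the analysis. Without replicate 1 of B73 the 2-fold counts were 2005 higher and 1441 lower, and those at 4-fold 1129 and 718. The balance over all called genes turned with the setting, so no direction is given for it. Higher genes made up 46.3% of the calls with TMM scaling of all libraries, and 59.9% with library sizes alone (5463 higher, 3664 lower). A change of unit and test to limma on log2(FPKM + 1) gave 5601 higher and 3683 lower (60.3%). With TMM kept, the balance also turned without ZmNRL1-OE replicate 1 (3852 higher, 3564 lower) or replicate 3 (3833 and 3433), with only the libraries compared (4023 and 3856) and without both B73 libraries with number 1 (4243 and 3739). With library sizes alone the median log2 fold change of all genes was 0.05, beside -0.03 with TMM. Leaving out 1 library gave 7266 to 9376 called genes in all, with 8178 without replicate 1 of B73.

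**Figure D2:**
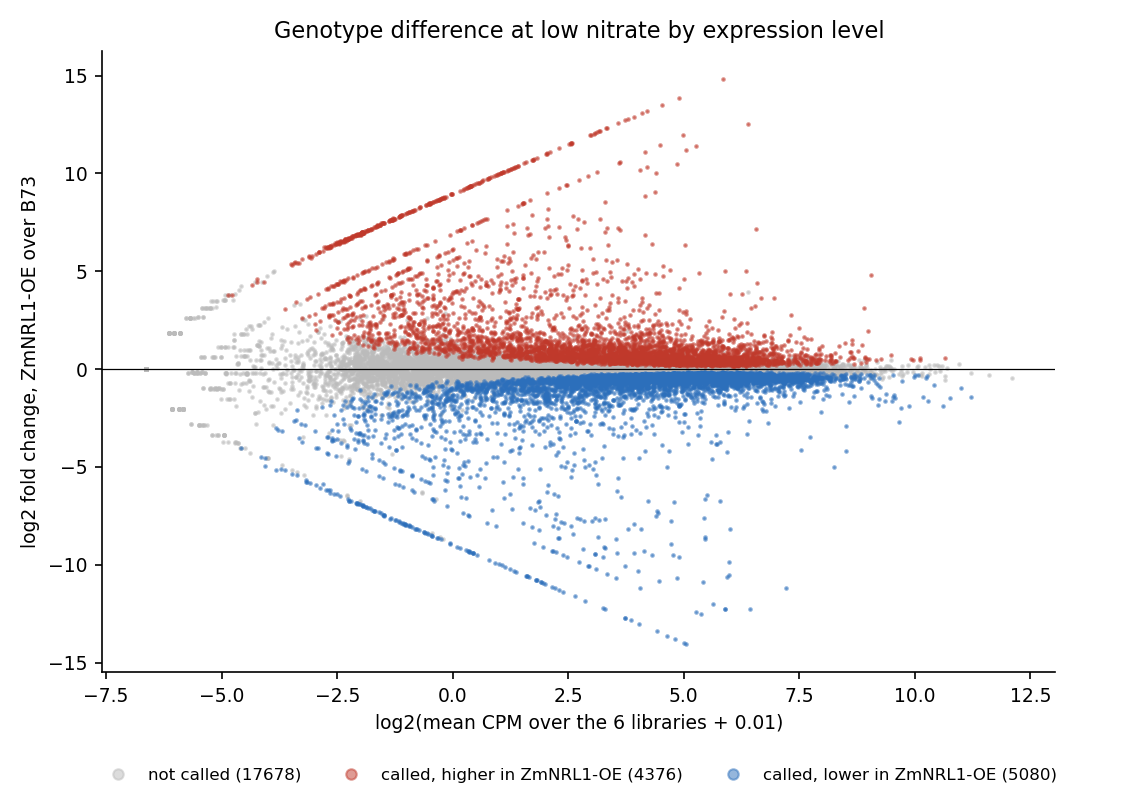
Log2 fold change of ZmNRL1-OE over B73 at low nitrate against log2 of the mean CPM over the 6 libraries, 1 point per tested gene. The 4376 higher and 5080 lower called genes fan out at low levels, where the diagonal edges are genes with 0 counts in 1 line, whose fitted fold depends on the prior count.

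The share of called genes ran from 31.4% to 40.5% over classes of mean CPM. Among the genes that passed the count filter, large differences were more frequent at low CPM. Of 3707 genes with a mean under 1 CPM over the 6 libraries, 31.4% were called and 30.3% were called and at least 2-fold apart. Of 7568 genes at 1 to 10 CPM, 35.5% were called and 19.0% were at least 2-fold apart. Among 13852 genes at 10 to 100 CPM the shares were 34.6% and 5.68%, and among 2007 genes at 100 CPM or more 40.5% and 5.63%. Under 1 CPM, 702 of the genes at least 2-fold apart were higher in ZmNRL1-OE and 420 lower, and at 1 to 10 CPM 803 and 634. At 10 to 100 CPM the counts were 440 higher and 347 lower, and at 100 CPM or more 46 and 67. The filter keeps a gene that reaches its minimum count in the libraries of 1 group alone. A gene with a low mean could thus pass through the line where it was high, so these shares are a description. With the stricter filter (minimum count 50), 623 higher and 456 lower called genes were at least 4-fold apart, beside 1052 and 698 in the main setting. A small difference passes the test more easily in a gene with many counts. The median absolute log2 fold change of the called genes was 3.18 in the lowest of these classes and 0.51 in the highest.

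A group of genes was read in 1 line and nearly absent from the other. At no more than 3 counts over the 3 B73 libraries and at least 5 CPM in ZmNRL1-OE stood 68 genes, 39 of them with 0 counts in B73. The opposite held for 69 genes, 30 of them with 0 counts in ZmNRL1-OE. Mean levels in the line that had the gene ran from 5.04 to 168 CPM in the first set (median 11.8) and from 5.02 to 171 CPM in the second (median 14.1). These sets were defined by the low-nitrate counts, so the low-nitrate difference is a description. The first set was larger without replicate 1 of B73, when 107 genes met the rule, while the second then held 68. Leaving out any other low-nitrate library gave 69 to 74 genes in the first set and 69 to 90 in the second.

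Zm00001d042692 had the highest CPM in the first set, with 181, 158 and 166 CPM in ZmNRL1-OE and 0.0894, 0 and 0 CPM in B73. It had 16574 counts in ZmNRL1-OE and 2 in B73, a ratio of 7012 after scaling, with 95% exact binomial bounds of 1941 and 57902 that cover counting error only. That ratio was 4056 without replicate 2 of B73, and without replicate 1 of B73 the gene had 0 counts in B73 and was at least 3406-fold higher against a floor of 3 counts over the group. Zm00001d043124 stood at 121, 113 and 112 CPM in ZmNRL1-OE and had 0 counts in all 3 B73 libraries. It was at least 3179-fold higher against that floor, or at least 1839-fold without replicate 2 of B73. Both genes were at their high level in every ZmNRL1-OE library, and the rule for naming required that the lines not overlap. In zmnrl1-m at low nitrate Zm00001d042692 had 9.87 ± 2.01 CPM and Zm00001d043124 0.243 ± 0.0803 CPM (SD, n = 3).

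Zm00001d021844 led the second set, with 0.0493, 0 and 0.0311 CPM in ZmNRL1-OE against 194, 153 and 167 CPM in B73. Its 3 counts in ZmNRL1-OE and 13870 in B73 gave a ratio of B73 to ZmNRL1-OE of 5464, with bounds of 1869 and 26500, and this ratio was 9562 without replicate 1 of ZmNRL1-OE. Zm00001d040693 had 0, 0.0406 and 0.0311 CPM in ZmNRL1-OE against 141, 108 and 107 CPM in B73. Its ratio of B73 to ZmNRL1-OE was 5699, with bounds of 1577 and 47066, and 3324 without replicate 1 of ZmNRL1-OE. Every B73 library was high for both genes, replicate 1 included. In zmnrl1-m, Zm00001d021844 stood at 0.919 ± 0.331 CPM and Zm00001d040693 at 0.0314 ± 0.0304 CPM (SD, n = 3).

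The high-nitrate libraries, whose counts were not part of the rule for these sets, had the same genes apart in the same direction. All 68 genes of the first set were called higher and all 69 of the second lower in ZmNRL1-OE at high nitrate, where 14.6% of all tested genes were called higher and 12.6% lower. The level in zmnrl1-m was mixed. Of the 68 genes 21 had at least 1 CPM in zmnrl1-m at low nitrate and 35 had at most 3 counts over its 3 libraries. Of the 69 genes 31 had at least 1 CPM there and 25 at most 3 counts.

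Some genes expressed in both lines also lay far apart. The class held called genes with no overlap, a mean of 1 CPM or more in both lines and 5 CPM or more in either. Of 27134 tested genes, 2701 were higher and 3730 lower by this rule, with no fold size required. The balance over all called genes turned with the setting, so no direction is given for this class either. Its genes with the largest fold changes follow. Zm00001d024886 had 205, 173 and 185 CPM in ZmNRL1-OE and 1.92, 0.691 and 1.502 CPM in B73, a log2 fold change of 7.16 ± 0.35 (SE; edgeR adjusted p = 1.15e-10). Zm00001d036331 had 46.8, 44.7 and 45.2 CPM in ZmNRL1-OE and 0.894, 1.30 and 1.26 CPM in B73, with a log2 fold change of 5.28 ± 0.15 (edgeR adjusted p = 1.93e-13). Both genes were high in all 3 ZmNRL1-OE libraries and low in all 3 B73 libraries. In zmnrl1-m at low nitrate the first was also high, at 133 ± 38.8 CPM, while the second was at 0.989 ± 0.184 CPM (SD, n = 3).

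On the lower side, Zm00001d053092 had 0.887, 0.974 and 1.181 CPM in ZmNRL1-OE against 132, 88.9 and 106 CPM in B73, a log2 fold change of -6.75 ± 0.18 (SE; edgeR adjusted p = 9.01e-14). Zm00001d024713 had 1.21, 1.01 and 0.808 CPM in ZmNRL1-OE against 107, 72.7 and 87.8 CPM in B73, a log2 fold change of -6.44 ± 0.16 (edgeR adjusted p = 5.84e-14). The ZmNRL1-OE libraries were all near 1 CPM, and no library of either line came close to the other line. Their levels in zmnrl1-m at low nitrate were 115 ± 18.4 and 85.2 ± 8.43 CPM (SD, n = 3), beside 109 ± 21.9 and 89.2 ± 17.3 CPM in B73. At high nitrate the log2 fold change was 7.58 for Zm00001d024886, 5.07 for Zm00001d036331, -6.98 for Zm00001d053092 and -6.25 for Zm00001d024713, and the difference between nitrate levels was not called for any of them (edgeR adjusted p = 0.965 to 0.974).

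**Figure D3:**
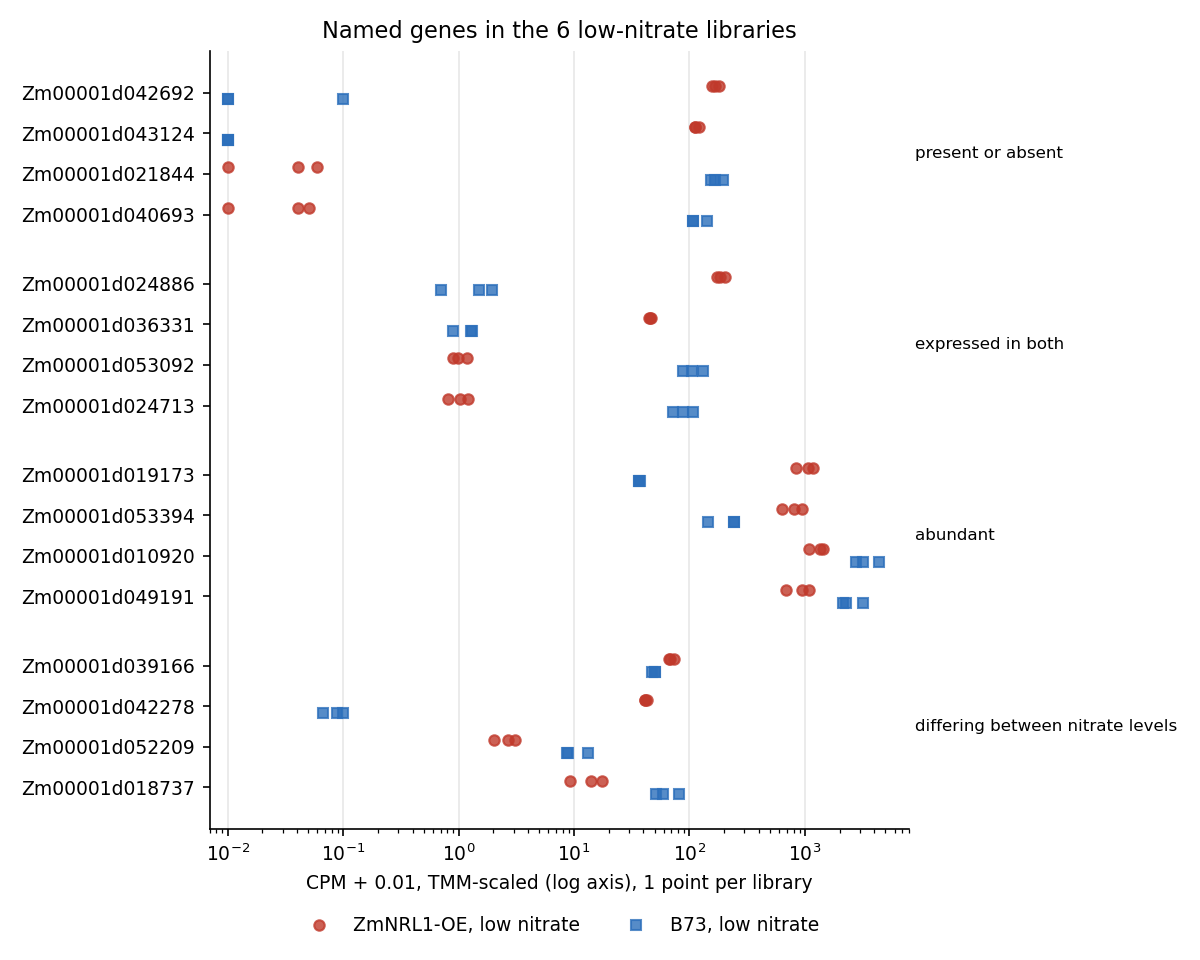
CPM + 0.01 on a log axis of the 16 named genes in the 6 low-nitrate libraries, with circles for ZmNRL1-OE drawn above squares for B73, 1 point per library, and the genes grouped by the rule that chose them. All were chosen from called genes whose lines do not overlap, so the lack of overlap follows from the rule. The distance between the lines runs from the ratios of 5464 to 7012 given for genes present in 1 line to 1.41-fold for Zm00001d039166.

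Among the genes that took the most reads, more were called lower than higher in ZmNRL1-OE. CPM is not corrected for gene length, so this ranks genes by reads and not by transcript number. Of the 100 genes with the highest mean CPM over the 6 libraries, 41 were called, 8 higher and 33 lower, and 17 of the lower genes but no higher gene were at least 2-fold apart. Over all tested genes 34.8% were called, 16.1% higher and 18.7% lower. The share called among the 100 was thus near that of all genes, while the split by direction departed from it. A lean to lower genes was not particular to the 100. Of the 2007 genes with a mean of 100 CPM or more, 249 were called higher and 563 lower, and at 10 to 100 CPM 2019 and 2772. At 1 to 10 CPM the counts were 1386 higher and 1303 lower, and under 1 CPM 722 and 442. Among the 100 genes DESeq2 called 13 higher and 37 lower, and also none at least 2-fold higher. With library sizes alone the counts were 13 higher and 27 lower, and without replicate 1 of B73 8 higher and 34 lower. The called lower genes together held 19.2%, 20.4% and 19.3% of the counts in ZmNRL1-OE and 29.9%, 30.2% and 27.9% in B73. The called higher genes held 17.4%, 16.2% and 17.6% in ZmNRL1-OE and 9.72%, 9.50% and 10.2% in B73. These shares follow from how the genes were chosen and are a description of how much of each library they made up.

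Among called genes at least 2-fold apart with no overlap, 1968 higher and 1430 lower, the lower ones with the highest mean CPM were Zm00001d010920 and Zm00001d049191. Zm00001d010920 had 1451, 1087 and 1349 CPM in ZmNRL1-OE against 2753, 4410 and 3173 CPM in B73 (log2 fold change -1.41 ± 0.18, SE; edgeR adjusted p = 1.79e-05). Zm00001d049191 had 1078, 688 and 940 CPM in ZmNRL1-OE against 2125, 3221 and 2288 CPM in B73 (log2 fold change -1.496 ± 0.20; edgeR adjusted p = 2.82e-05). Replicate 2 was the lowest ZmNRL1-OE library and the highest B73 library for both. At high nitrate both were also called lower, with smaller fitted log2 fold changes of -0.90 ± 0.18 and -0.83 ± 0.20 in the same order (edgeR adjusted p = 0.00129 and 0.00524), and the difference between nitrate levels was not called (edgeR adjusted p = 0.847 and 0.767).

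The higher genes with the highest mean CPM were Zm00001d019173 and Zm00001d053394. Zm00001d019173 had 1063, 831 and 1178 CPM in ZmNRL1-OE and 37.3, 36.9 and 36.5 CPM in B73, a log2 fold change of 4.79 ± 0.30 (SE; edgeR adjusted p = 2.78e-09). Zm00001d053394 had 951, 636 and 812 CPM in ZmNRL1-OE and 145, 242 and 244 CPM in B73, with a log2 fold change of 1.93 ± 0.18 (edgeR adjusted p = 3.02e-07). The B73 libraries agreed closely for the first gene and had their lowest value in replicate 1 for the second. At high nitrate Zm00001d019173 spread widely in ZmNRL1-OE, at 399, 667 and 218 CPM, against 36.8, 32.8 and 37.8 CPM in B73. Both genes were also called higher there, with log2 fold changes of 3.58 ± 0.29 and 1.67 ± 0.17 in the same order (edgeR adjusted p = 5.65e-08 and 1.45e-06). The difference between nitrate levels was not called for either (edgeR adjusted p = 0.500 and 0.959). In zmnrl1-m at low nitrate these genes stood at 28.5 ± 4.07 and 242 ± 11.7 CPM (SD, n = 3).

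Most of the genotype differences recurred at high nitrate, between group means estimated from other libraries. All 18 libraries shared the filter, the scaling and the estimate of the spread, so the calls at the 2 levels are not fully separate. At high nitrate 7385 genes (27.2%) were called. Called higher at both nitrate levels were 3066 genes, 70.1% of those higher at low nitrate and 77.5% of those higher at high nitrate. Called lower at both were 2786 genes, 54.8% and 81.3% of the lists, and 5 genes were called in opposite directions. Of the 3599 genes called at low nitrate but not at high nitrate, 92.7% had a fitted change of the same sign at high nitrate. The share of the same sign over all tested genes was not computed, so this share has no level to stand beside. For 4 of the 3599 genes a difference between the levels was called. The median absolute log2 fold change of the 3599 genes at low nitrate was 0.50, beside 0.99 for genes called at both levels. Over all tested genes the log2 fold changes at the 2 levels had a Pearson r of 0.935 and a Spearman rho of 0.784, which are correlations across genes, and genes are not independent replicates. The B73 libraries with number 1 shared reads of the same otherwise absent genes at both levels. Without both of them 2894 genes were higher at both levels (68.2% of those at low and 74.1% of those at high nitrate), 2265 were lower at both (60.6% and 78.8%), and 3 had opposite calls.

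**Figure D4:**
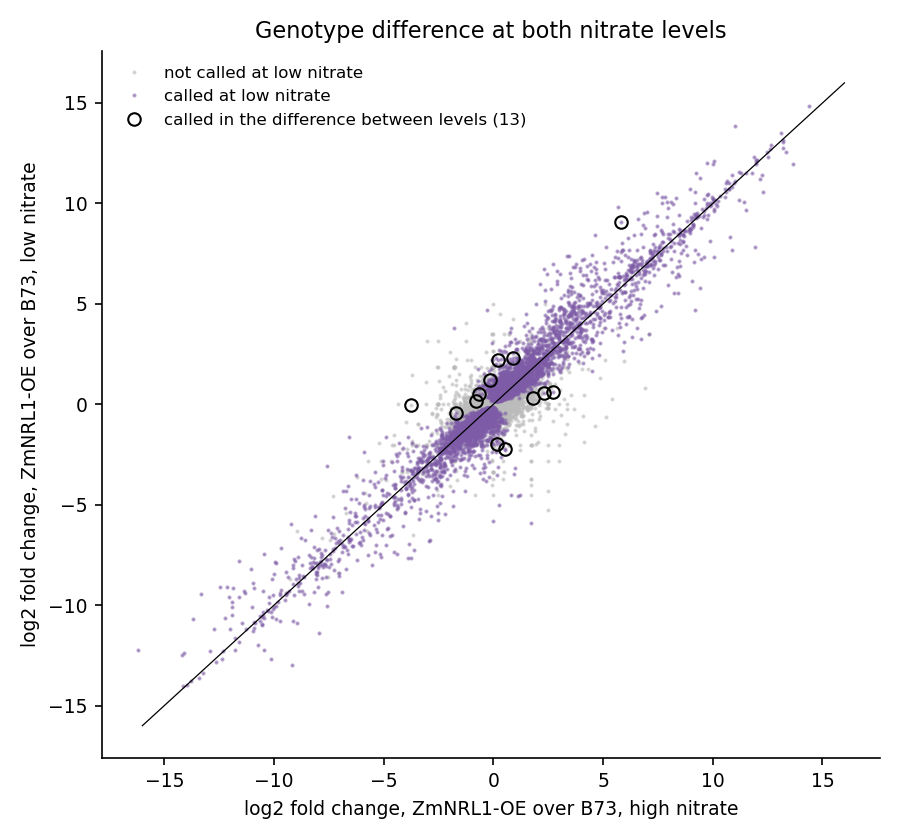
Log2 fold change of ZmNRL1-OE over B73 at low nitrate (vertical) against that at high nitrate (horizontal), 1 point per tested gene, with the line of equal values. Genes called at low nitrate lie along the line, and the 13 circled genes are those called for a difference between the nitrate levels.

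Few genes were called for a genotype difference that changed with nitrate supply. The interaction test called 13 genes (0.0479% of those tested), of which 8 had a log2 fold change that was more positive and 5 more negative at low nitrate. By the same edgeR test 1650 genes (6.08%) had an unadjusted p under 0.05. With 3 libraries per group, a gene without a call is not shown to have the same difference at both levels. DESeq2 called 104. Of the 13 genes, 10 were also called at low nitrate with no overlap between the lines. When ZmNRL1-OE lost a library, the count was 22 without replicate 2 at low nitrate, 5 without replicate 3 at low nitrate and 7 without replicate 1 at high nitrate. When B73 lost its replicate 3, the count was 8 if that library was from low and 4 if it was from high nitrate. Dropping both B73 libraries with number 1 left 11.

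Zm00001d039166 changed direction between the levels. At low nitrate it had 66.0, 74.1 and 68.2 CPM in ZmNRL1-OE and 50.3, 49.98 and 47.4 CPM in B73, and at high nitrate 43.9, 39.6 and 46.8 CPM in ZmNRL1-OE and 72.5, 61.0 and 69.9 CPM in B73. ZmNRL1-OE was the higher line in every low-nitrate library, where the rule for naming required no overlap. It was the lower line in every high-nitrate library, which the rule did not cover. The log2 fold change was 0.50 ± 0.09 at low and -0.64 ± 0.09 at high nitrate (SE; edgeR adjusted p = 0.000306 and 2.52e-05), a difference of 1.14 ± 0.12 (edgeR adjusted p = 0.000866). In zmnrl1-m at low nitrate it stood at 80.5 ± 8.12 CPM (SD, n = 3).

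Zm00001d042278 was far higher in ZmNRL1-OE at both levels, and further apart at low nitrate. It had 41.0, 40.9 and 42.7 CPM in ZmNRL1-OE and 0.0894, 0.0576 and 0.0791 CPM in B73 at low nitrate, where B73 had 6 counts in all. At high nitrate it had 32.6, 35.8 and 36.5 CPM in ZmNRL1-OE and 0.513, 0.768 and 0.611 CPM in B73. Every ZmNRL1-OE library was higher and every B73 library lower at low than at high nitrate. The difference of the log2 fold changes was 3.28 ± 0.35 (SE; edgeR adjusted p = 0.000866). Its size depended on the scale, at 1.71 from log2(FPKM + 0.1) and 0.56 from log2(FPKM + 1).

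The other named pair was lower in ZmNRL1-OE at low nitrate alone by the calls. Zm00001d052209 had 3.10, 2.03 and 2.67 CPM in ZmNRL1-OE and 8.67, 13.3 and 8.93 CPM in B73 at low nitrate (log2 fold change -1.97 ± 0.23, SE; edgeR adjusted p = 4.61e-06), beside 4.39 ± 0.421 CPM in ZmNRL1-OE and 3.89 ± 0.728 CPM in B73 at high nitrate (SD, n = 3). Zm00001d018737 had 17.5, 9.21 and 13.9 CPM in ZmNRL1-OE and 59.1, 51.5 and 80.9 CPM in B73 at low nitrate (log2 fold change -2.22 ± 0.31; edgeR adjusted p = 3.13e-05). At high nitrate Zm00001d018737 spread from 46.1 to 108 CPM in ZmNRL1-OE and from 49.8 to 68.7 CPM in B73, and the lines overlapped. The interaction itself gave a difference of -2.14 ± 0.32 for Zm00001d052209 and of -2.77 ± 0.42 for Zm00001d018737 (edgeR adjusted p = 0.0169 and 0.0184). Over 22 alternative settings the call was lost in 3 for Zm00001d052209 (edgeR, DESeq2 and limma adjusted p from 7.49e-07 to 0.0716) and in 8 for Zm00001d018737 (1.48e-07 to 0.0978).

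Genes that low nitrate raised in zmnrl1-m were more often higher than lower in ZmNRL1-OE. The 6 zmnrl1-m libraries lie on neither side of the comparison. Of 744 genes at least 2-fold higher at low than at high nitrate there, 231 (31.0%) were called higher in ZmNRL1-OE than in B73 at low nitrate and 105 (14.1%) lower, beside 16.1% and 18.7% of all tested genes. Their median log2 fold change was 0.29, beside -0.03 over all tested genes. Without both B73 libraries with number 1 the shares were 29.2% higher and 11.7% lower, beside 15.5% and 13.7% of all genes, and with library sizes alone 34.7% and 12.5%, beside 20.1% and 13.5%. Of 669 genes at least 2-fold lower at low nitrate in zmnrl1-m, 101 (15.1%) were called higher and 131 (19.6%) lower in ZmNRL1-OE, shares near those of all genes, with a median log2 fold change of -0.07. With no fold required, 565 of 2413 raised genes (23.4%) were higher and 423 (17.5%) lower, and 379 of 2433 lowered genes (15.6%) were higher and 386 (15.9%) lower. For 2 of the 744 and 5 of the 669 genes the genotype difference was called to differ between nitrate levels, beside 13 of all 27134 tested genes (0.0479%). These shares were not tested.

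Differences between the lines were unevenly spread along the order of the gene identifiers. The tested genes were taken in numeric order of their identifiers in 271 full blocks of 100. The share of called genes in a block ran from 18% to 60% (median 32%), and the share that was called and at least 2-fold apart from 1% to 34% (median 11%). The block from Zm00001d024635 to Zm00001d024807 had 17 genes at least 2-fold higher and 17 at least 2-fold lower, and that from Zm00001d029663 to Zm00001d029846 had 15 higher and 19 lower. In the blocks from Zm00001d001914 to Zm00001d002068 and from Zm00001d013217 to Zm00001d013370 a single gene, higher in ZmNRL1-OE, was at least 2-fold apart. Other blocks leaned to 1 direction, such as that from Zm00001d020969 to Zm00001d021170 with 21 higher and 4 lower genes. These blocks were picked for their values.

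At high nitrate the 2 blocks with 34% had 32% and 29% of genes called and at least 2-fold apart, and the sparse ones 4% and 3%. Over the 271 blocks the 2-fold shares at low and high nitrate correlated with r = 0.940, a description of blocks that share their genes and lines. Neighbours in this order were alike more often than genes in general. Of 3458 called genes at least 2-fold apart, 21.9% were followed by another such gene, while 12.7% of all tested genes met that rule, and 60.9% of such pairs pointed in the same direction. At the 4-fold level 15.4% were followed by another, beside 6.45% of all genes. In the row order of the deposited count table the shares were 21.9% and 15.4%. Without both B73 libraries with number 1 the share followed by another 2-fold gene was 21.5%, beside 12.5% of all genes. No chance level was computed for these shares, and near-identical neighbouring copies that share reads could enter them, which was not tested.

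**Figure D5:**
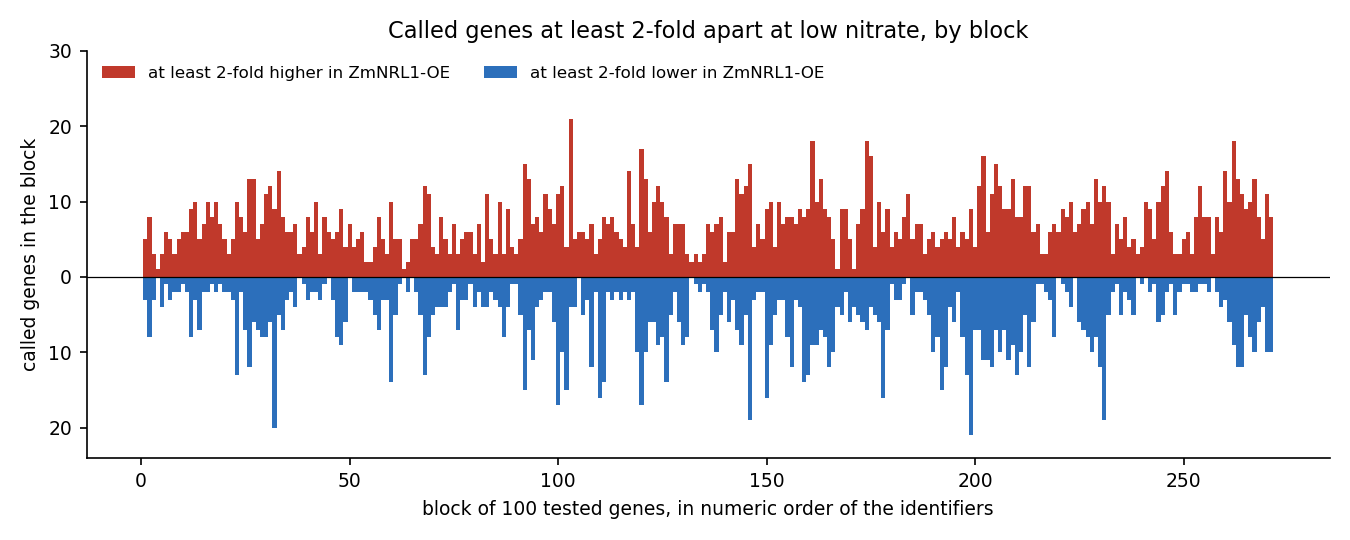
Number of called genes at least 2-fold higher (above 0) or at least 2-fold lower (below 0) in ZmNRL1-OE at low nitrate in each of 271 blocks of 100 tested genes, in numeric order of the identifiers. The 2 blocks with the highest share held 17 higher and 17 lower genes and 15 higher and 19 lower genes, while the block with the most higher genes held 21 higher and 4 lower.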

How the data were processed

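Libraries for mRNA were made from roots with a Hieff NGS Ultima kit, per the labels. The authors deposited raw read counts per gene, the source of the main results, and FPKM values, which the authors had scaled to gene length and depth, used for 2 alternatives. Per the submitters' processing notes the tools included HISAT2 2.2.1, featureCounts 2.0.1, Trim Galore 1.18 and bcl2fastq 2.19.1, and the build was B73 RefGen_v4, which is the genome of one of the lines compared. How featureCounts was set for strand and for reads matching more than 1 gene is not given in the sources used here, so counts of near-identical, overlapping and antisense genes are uncertain. The labels give no batch or date.

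Of 41632 genes, 27134 passed filterByExpr (minimum count 10), holding 99.97% of the counts. Scaling used TMM (trimmed mean of M-values), and every CPM given is on that scale. All 18 libraries entered a single model with 6 group means (12 residual degrees of freedom), fitted by glmQLFit and tested by glmQLFTest (edgeR 4.0.16, R 4.3.3), with Benjamini-Hochberg adjustment over all tested genes. Standard errors are the log2 fold change over the square root of F. The steps were tested on simulated data. Alternatives used DESeq2 1.42.0, limma 3.58.1, other scalings and filters, the compared libraries alone, a replicate block and 1 library left out.

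Genes were named by rule among called genes with no overlap between lines, 2 per direction, in 4 classes: at most 3 counts in 1 line and at least 5 CPM in the other, by CPM; at least 1 CPM in both lines and at least 5 in 1, by fold change; at least 2-fold apart, by mean CPM; and called in the interaction, by its adjusted p. Genes that bound a block in identifier order were printed beside these. The rule, the lists and the comparison were chosen with earlier results of these data known. The planned gene lists and tissue markers need names and were not tested. Between replicates within the 2 groups, chi-square per degree of freedom was 10.4 to 25.6, which is more than counting error alone gives. The replicates thus did not look like repeat reads of a single library, and each was counted as 1 sample. Whether they were grown separately cannot be told from this. Exact binomial intervals (95%) and floors of 3 counts cover counting error only.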

Additional observations from a re-analysis of the deposited data

Results flagged for a closer look

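The interaction test of edgeR called 13 genes for a difference between ZmNRL1-OE and B73 that changed with the nitrate level. That count ran from 4 to 104 over 22 alternative settings. The named genes among the 13 were flagged because of this call. On the log2 scale the fold change at low nitrate minus that at high nitrate was 1.14 for Zm00001d039166, whose direction turned between the levels, and 3.28 for Zm00001d042278. The call was kept in all 22 alternative settings for both, but the size for Zm00001d042278, which had 6 counts in B73 at low nitrate, was 1.71 from log2(FPKM + 0.1) and 0.56 from log2(FPKM + 1). The same difference was -2.14 for Zm00001d052209 and -2.77 for Zm00001d018737, where the call was lost in 3 and 8 of 22 settings.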

How the results depend on the processing

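The counts of called genes at low and at high nitrate stayed within 1.5 times their main value in all 16 settings (7266 to 9725 and 5883 to 7897), and all 16 named genes kept their direction and their call at low nitrate in each of them. The count for the interaction moved to 104 with DESeq2, 41 from log2(FPKM + 1), 24 from log2(FPKM + 0.1), 20 with no filter on low counts and 6 with only the libraries compared, and lay between 4 and 22 when 1 library was dropped. From log2(FPKM + 1), which understates the change of low genes, 1162 higher and 760 lower genes were at least 2-fold apart. With 1 library left out these counts ranged from 1839 to 2123 and from 1350 to 1554. The set nearly absent from B73 ranged from 69 to 107 genes with 1 library left out, and held 109 once both number 1 libraries of B73 were dropped, an alternative added after seeing the data. The cause of these moves was not tested.

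Replicate numbers are shared between the groups. Same-numbered libraries of ZmNRL1-OE and B73 at low nitrate had deviations from their group means that correlated with r = -0.107, -0.0447 and -0.0346. The numbers were therefore not taken to pair the lines at low nitrate. Whether they pair the low- and high-nitrate libraries of a line was not checked in this way. With the replicate number as a block 8871 genes were called at low nitrate, 6907 at high nitrate and 14 for the interaction.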
